A study of Mus musculus with 11 samples.

Results

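The genes described here store, move and sense iron in skeletal muscle: Fth1, Ftl1, Hmox1, Tfrc, Slc40a1, Slc11a2, Ireb2 and Ncoa4. These 8 genes were chosen by name from a count table of 55385 genes, each has 1 row there, and all 8 were among the 15416 genes that passed the filter on low counts. The libraries were made from gastrocnemius, a calf muscle, of mice fasted for 36 hours. ZEB1 and ZEB2 are zinc finger repressors of transcription, and each was deleted in muscle by crossing mice with floxed alleles to HSA-Cre, a Cre recombinase driven by the human skeletal actin promoter and active in myofibres. The 4 groups were ZEB1 flx/flx controls (2 libraries, replicates 2 and 3), ZEB1 flx/flx; HSACre knockouts (3), ZEB2 flx/flx controls (3) and ZEB2 flx/flx; HSACre knockouts (3). Each library pooled 2 mice, both control groups carry floxed alleles without Cre, and a group with Cre and no floxed allele, and fed mice, were not analysed here. Age and sex are not given in the labels.

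Ferritin is a hollow shell built from heavy chains (Fth1), which oxidise iron for storage, and light chains (Ftl1), which help to form the mineral core. Transferrin receptor (Tfrc) brings iron into the cell, DMT1 (Slc11a2) carries it across the endosomal membrane, and ferroportin (Slc40a1) is the iron exporter of vertebrate cells. Heme oxygenase 1 (Hmox1) breaks down heme and releases its iron, NCOA4 delivers ferritin to the lysosome for breakdown, and IRP2 (Ireb2) is an iron-regulated RNA-binding protein. When iron is scarce, IRP2 and its relative IRP1 bind iron-responsive elements, short RNA hairpins. Binding in a 5′ UTR blocks translation, as for ferritin, and binding in the 3′ UTR protects the Tfrc transcript from decay. Muscle holds much of its iron in myoglobin and mitochondria.

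The hairpins are shown because they join transcripts of this set to the same regulators, and 4 of the 8 held a hairpin of the form searched here. A count of mRNA reads this control only in part: for Fth1, Ftl1 and Slc40a1 the hairpins act on translation, which RNA-seq does not measure. Transcripts of the GENCODE M21 annotation (GRCm38) were searched on the sense strand for a bulged C, a 5-base-pair stem and a loop that begins with CAGTG and ends in A, C or T, with at least 2 of 3 further pairs below the bulge. The search found 7 sites in 4 of the 8 genes, and a site in 64 of 21901 protein-coding genes (0.292%). The windows below are 30 bases long and the loop is in capitals.
Fth1, 5′ UTR, chr19:9982732-9982761, plus strand: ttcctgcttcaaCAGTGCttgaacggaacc
Ftl1, 5′ UTR, chr7:45459778-45459807, minus strand: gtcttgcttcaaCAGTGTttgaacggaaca
Slc40a1, 5′ UTR, chr1:45925464-45925493, minus strand: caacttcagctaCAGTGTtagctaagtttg
Tfrc, 3′ UTR, chr16:32631219-32631248, plus strand: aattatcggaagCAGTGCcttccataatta
Tfrc, 3′ UTR, chr16:32631598-32631627, plus strand: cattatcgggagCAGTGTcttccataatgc
Tfrc, 3′ UTR, chr16:32631663-32631692, plus strand: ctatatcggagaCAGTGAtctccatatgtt
Tfrc, 3′ UTR, chr16:32631710-32631739, plus strand: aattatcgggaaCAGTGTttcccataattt
The ferritin sites share the bulged C and the stem letters before the loop, together cttcaa, and the stem letters ttgaa after it. The 4 Tfrc sites lie in 1 stretch of its 3′ UTR. No match of this form was found in the transcripts of Hmox1, Slc11a2, Ireb2 or Ncoa4, which says only that these letters are not there. The search was strict and cannot show that these transcripts lack a hairpin of another form.

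Total counts ran from 27286288 to 46259639 per library. Values are given as CPM, a gene's counts set to the same total in every library, here after scaling with edgeR's TMM factors. The summed level of 10 myofibre markers was 85085 to 110629 CPM per library, so the labelled tissue is seen in all 11. The targeted genes were lower in their own knockouts without reaching 0. Zeb1 was at 28.4, 28.6 and 30.4 CPM in the ZEB1 knockouts, against 41.2 and 51.1 in their controls, a log2 difference of -0.67 (edgeR adjusted p = 0.800). Zeb2 was at 18.3, 14.4 and 17.7 CPM in the ZEB2 knockouts, against 24.1, 23.1 and 25.8 (-0.53, edgeR adjusted p = 0.0775). In the same ZEB2 comparison Zeb1 was at 67.2, 60.2 and 76.0 CPM in the knockouts, against 47.7, 52.1 and 43.7 CPM (0.50, edgeR adjusted p = 0.0787). Summed Y-linked transcripts were at 0 CPM in ZEB1 control 2, ZEB1 knockouts 1 and 2 and ZEB2 control 3, and between 118 and 378 CPM in the other 7 libraries, so the pools differ in sex within groups. The compared groups differ in it too: the ZEB2 knockouts had 216, 256 and 378 CPM and the ZEB2 controls 118, 250 and 0 CPM. With this level as a covariate the ZEB2 log2 difference was 0.53 for Fth1 (edgeR adjusted p = 0.158), 1.18 for Hmox1 (0.322) and -2.01 for Tfrc (0.230). In bulk muscle, fewer cells of a type and less RNA per cell cannot be told apart. The labels do not say that the pools of 1 group are independent litters or cohorts, so p-values measure the spread between these pools.

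Ferritin heavy chain was by far the most abundant of the 8 transcripts. Per kilobase of the reference transcript, the mean over the 11 libraries was 1613 CPM for Fth1 and 243.7 for Ftl1. The next genes on this per-length scale were Ncoa4 (15.7 ± 1.26 CPM per kilobase, SD over 11 libraries), Tfrc (15.6 ± 14.2), Slc40a1 (15.2 ± 4.06) and Hmox1 (12.9 ± 7.63), which do not differ beyond their spread. Ireb2 (7.46 ± 0.853) and Slc11a2 (7.01 ± 0.755) came last and overlapped. Fth1 and Ftl1 keep the first and second places when the union of all annotated exons is used as the length, but the middle 4 take another order (Tfrc, Hmox1, Slc40a1, Ncoa4). In rank of mean CPM among all genes Fth1 was number 63 and Ftl1 number 441, and the 2 ferritin genes together took 0.143% to 0.212% of a library's counts. The lowest count of any member was 223 (Hmox1), with a counting error of 6.70%.

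**Figure D1:**
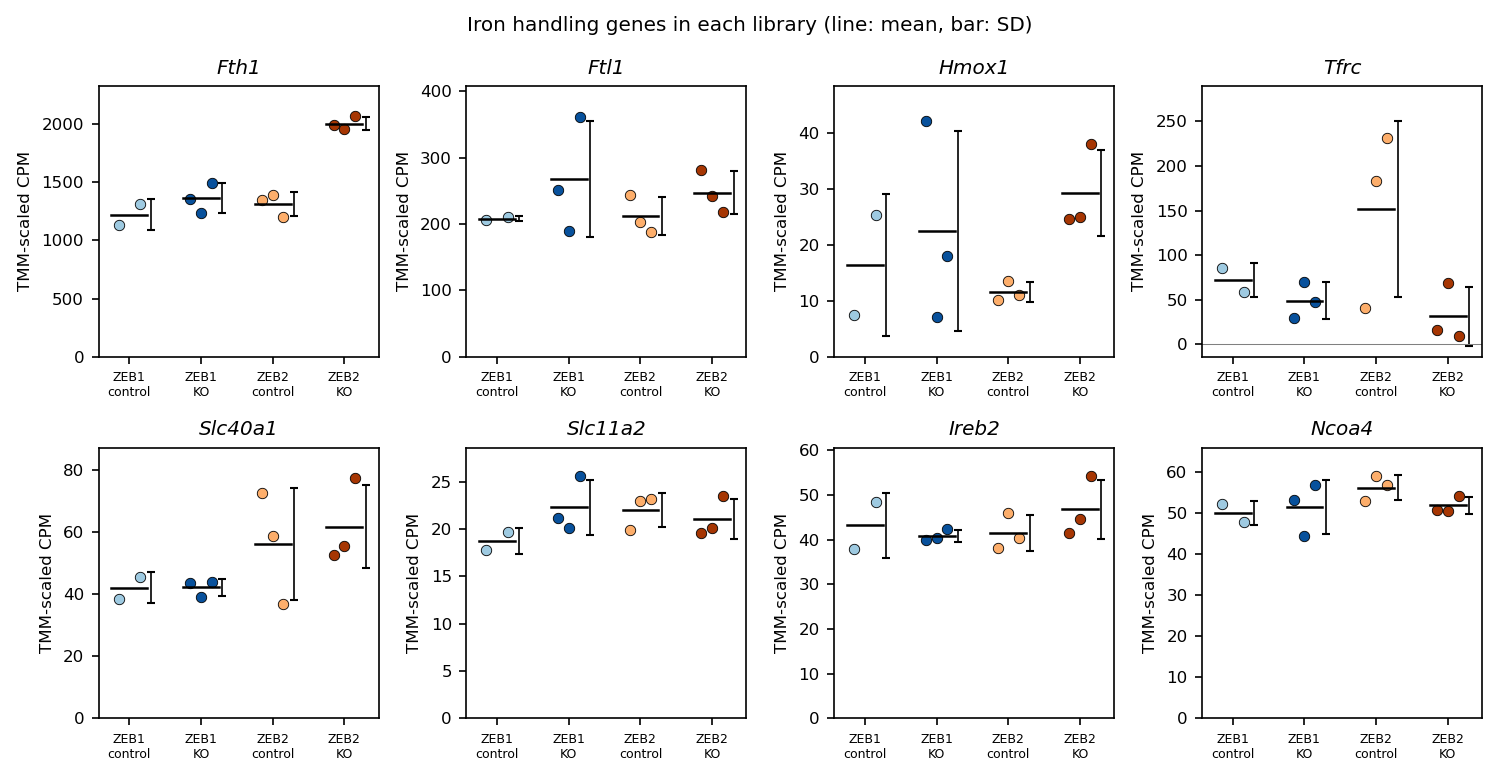
TMM-scaled CPM (linear axis) of the 8 genes in each of the 11 libraries, by group, with the mean as a line and the SD as a bar. The 3 ZEB2 knockout libraries sit between 1956 and 2066 CPM for Fth1, above every other library, while Tfrc ranges from 9.32 to 230.9 CPM.

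None of the 8 genes passed an adjusted p of 0.05 in any comparison with edgeR's quasi-likelihood test, the main test. In ZEB2 knockouts against ZEB2 controls that test called 0 of 15416 genes (0%), although 5113 genes (33.2%) had an unadjusted p under 0.05 and 2649 (17.2%) an adjusted p under 0.1. The count of 5113 was 2488 without ZEB2 control 3, 2708 without ZEB2 knockout 3 and 3340 with the Y-linked level as a covariate. The smallest adjusted p, 0.0775, was shared by 555 genes. DESeq2, run as an alternative, called 2587 of 13319 genes in that comparison (19.4%), and limma-voom called 0. Fth1, Hmox1 and Tfrc were the 3 members with an unadjusted p under 0.05 there, and the same 3 were called by DESeq2. Thus 3 of 8 members stood beside a background of 33.2% of all genes by the unadjusted p. The members' log2 differences were above 0 in 5 and below in 3, with a median of 0.16, and those of all genes were above 0 in 7184 and below in 8226, with a median of -0.05. In 2 of the 8 members (Fth1 and Hmox1) all knockout libraries lay above all controls, and 21.3% of all genes did so.

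Fth1, the ferritin heavy chain, stood at 1988, 1956 and 2066 CPM in the ZEB2 knockouts and at 1349, 1393 and 1197 CPM in their controls. The lowest knockout library lies well above the highest control. The means were 2003 ± 56.6 and 1313 ± 103 CPM (SD, n = 3 each), a 1.53-fold difference, or 0.61 on the log2 scale (SE 0.12). By unadjusted p (0.000358) Fth1 ranked 38 of 15416 genes, with an edgeR adjusted p of 0.0775 and a DESeq2 adjusted p of 0.000539. Over the alternatives with all libraries the edgeR, limma and DESeq2 adjusted p ran from 0.000539 to 0.158. The coefficient of variation within the ZEB2 knockouts was 2.82%, against a median of 14.1% over genes of at least 1 CPM in that group. Among ZEB1 knockouts Fth1 was at 1358, 1237 and 1491 CPM, and the 2 ZEB1 controls had 1129 and 1314 CPM. These groups overlap, and the log2 difference of 0.16 (SE 0.14) did not pass the test (edgeR adjusted p = 1.00). The gene lies on chr19:9980598-9985098 (GRCm38, plus strand).

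Ftl1, the light chain on chr7:45457944-45459884, differed less in the ZEB2 line. Its levels were 281.8, 241.7 and 217.7 CPM in ZEB2 knockouts and 244.2, 202.8 and 188.5 CPM in controls. The groups overlap, with means of 247.1 ± 32.4 and 211.9 ± 28.9 CPM (SD, n = 3 each) and a log2 difference of 0.22 (SE 0.21, edgeR adjusted p = 0.477). ZEB1 knockouts were at 251.6, 188.8 and 361.9 CPM and their controls at 205.5 and 210.7 CPM. The highest Ftl1 value of all, in ZEB1 knockout 3, lies in the same group as one of the 2 lowest, and the log2 difference was 0.36 (SE 0.24, edgeR adjusted p = 1.00). It was 0.072 without ZEB1 knockout 3 and 0.56 without ZEB1 knockout 2. Of the rows named as ferritin copies, only Ftl1-ps1 had a mean of at least 1 CPM, with 1.04 to 2.73 CPM per library. Reads that fit both a ferritin gene and a copy could be split by the counting.

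The balance of the chains was taken within each library, where no scaling enters, as Ftl1 counts in percent of Ftl1 plus Fth1 counts. Light chain took 12.4%, 10.998% and 9.53% in the ZEB2 knockouts and 15.3%, 12.7% and 13.6% in their controls. These groups do not overlap, with means of 10.98% ± 1.44 and 13.9% ± 1.33 (SD, n = 3 each). The difference of -2.90 percentage points had an exact two-sided permutation p of 0.1, the smallest that 3 against 3 libraries can give, and it was -2.93 with the ferritin copies added in. In the ZEB1 line the shares were 15.6%, 13.2% and 19.5% in knockouts and 15.4% and 13.8% in controls. The difference of 1.52 percentage points (exact permutation p = 0.7) turned to -0.17 without ZEB1 knockout 3.

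**Figure D2:**
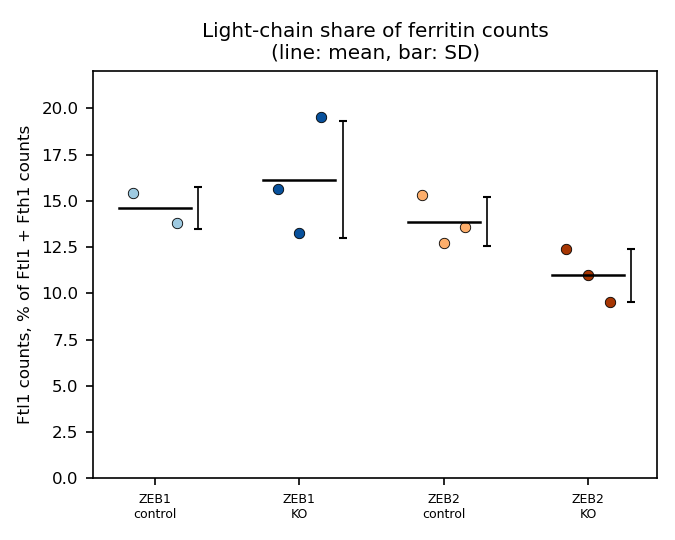
Ftl1 counts as a percentage of Ftl1 plus Fth1 counts (vertical axis from 0) in each library, by group, with the mean as a line and the SD as a bar. The 3 ZEB2 knockout libraries, at 9.53% to 12.4%, are the lowest of the 11, and ZEB1 knockout 3 is the highest at 19.5%.

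Hmox1, heme oxygenase 1 on chr8:75093621-75100589, was at 24.6, 25.03 and 38.1 CPM in ZEB2 knockouts and at 10.2, 13.5 and 10.98 CPM in ZEB2 controls. All 3 knockout libraries lie above all 3 controls. The means were 29.2 ± 7.67 and 11.6 ± 1.74 CPM (SD, n = 3 each), a 2.53-fold difference, or 1.34 on the log2 scale (SE 0.59). Its edgeR adjusted p was 0.144 and its DESeq2 adjusted p 0.0497, with a range of 0.0497 to 0.353 over the alternatives with all libraries. With only the 2 ZEB2 groups fitted, the edgeR adjusted p was 0.0388. In the ZEB1 line the spread within groups was as large as any difference between them. Controls 2 and 3 were at 7.43 and 25.4 CPM, and knockouts 1, 2 and 3 at 42.1, 7.18 and 17.9 CPM. The lowest and the highest Hmox1 value of all 11 libraries are both ZEB1 knockouts. The coefficient of variation was 77.4% in ZEB1 controls and 79.8% in ZEB1 knockouts, against 90th percentiles of 43.9% and 40.6% over genes of at least 1 CPM. The ZEB1 difference was 0.45 on the log2 scale (SE 0.65, edgeR adjusted p = 1.00), and it was -0.41 without ZEB1 knockout 1 and -0.21 without ZEB1 control 2.

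In the ZEB1 line the uneven Hmox1 levels moved with those of Trim63, the muscle ubiquitin ligase MuRF1 that marks atrophy, and Mt1. Mt1 is a metallothionein that binds zinc and copper. Trim63 and Mt1 were set beside Hmox1 after their values were seen. In the ZEB1 controls Trim63 was at 769.9 and 4750 CPM, and in the ZEB1 knockouts at 4710, 925.1 and 2854 CPM. Mt1 was at 14.96 and 143.9 CPM in those controls and at 287.3, 21.3 and 76.3 CPM in those knockouts. Within both ZEB1 groups, the libraries low in Hmox1 are those low in Trim63 and Mt1. In the ZEB2 knockouts Trim63 was at 5157, 4973 and 7378 CPM, against 2140, 3197 and 956.2 CPM in controls. Mt1 was at 132.9, 116.6 and 150.5 CPM, against 26.8, 45.4 and 56.4 CPM. Their part in the Hmox1 result was not tested.

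**Figure D3:**
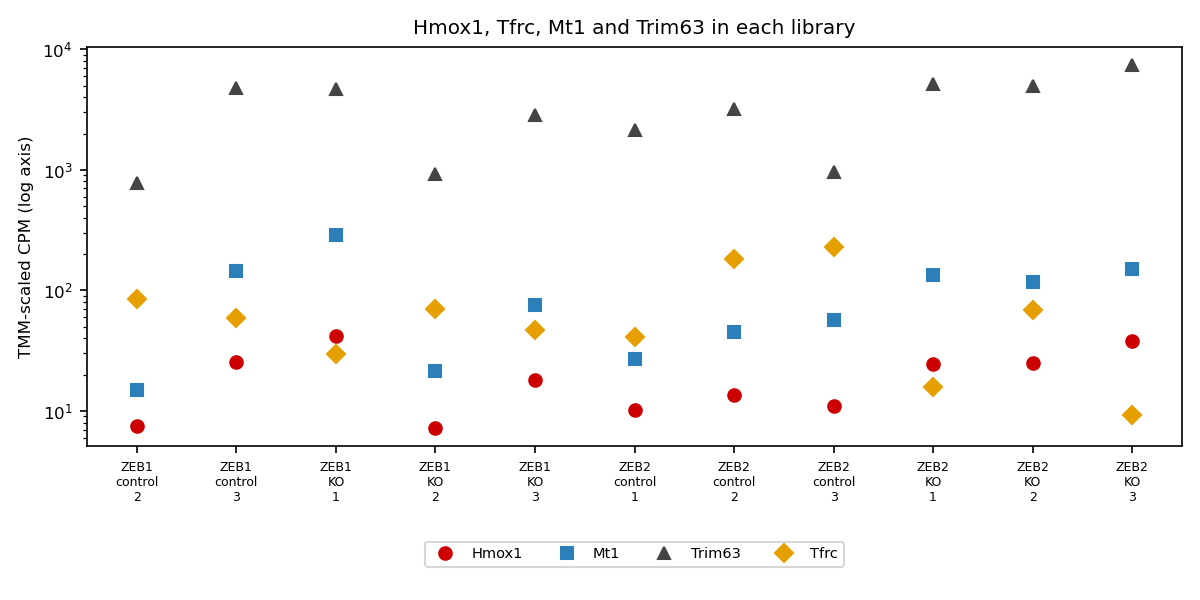
TMM-scaled CPM on a log axis for Hmox1, Tfrc, Mt1 and Trim63 in each of the 11 libraries, which are named by group and replicate along the horizontal axis. Hmox1, Mt1 and Trim63 are all low in ZEB1 control 2 and ZEB1 knockout 2, while Tfrc is lowest in ZEB2 knockouts 1 and 3 (15.9 and 9.32 CPM).

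Tfrc, the transferrin receptor on chr16:32608920-32632794, had the widest range of the 8 genes, 24.8-fold between the lowest and the highest library. ZEB2 knockouts were at 15.9, 69.1 and 9.32 CPM and ZEB2 controls at 40.9, 183.3 and 230.9 CPM. The groups overlap, since ZEB2 knockout 2 lies above ZEB2 control 1. The means were 31.4 ± 32.8 and 151.7 ± 98.9 CPM (SD, n = 3 each), a 4.82-fold lower mean in knockouts, or -2.27 on the log2 scale (SE 0.79). The edgeR adjusted p was 0.0997 and the DESeq2 adjusted p 0.0406, with a range of 0.0406 to 0.244 over the alternatives with all libraries. Without ZEB2 knockout 2 the log2 difference was -3.59, and without ZEB2 knockout 3 it was -1.82. Within the ZEB2 knockouts the coefficient of variation of 104.2% lies above the 90th percentile of genes of at least 1 CPM there (33.1%), and the 65.2% in ZEB2 controls does so too (31.2%). ZEB1 controls were at 85.4 and 58.7 CPM and ZEB1 knockouts at 29.5, 70.2 and 47.0 CPM, which overlap (-0.56 on the log2 scale, SE 0.84, edgeR adjusted p = 1.00).

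Tfrc also serves red cell precursors, so erythroid markers were read beside it. Of 7 tested erythroid markers 0 were higher and 7 lower in ZEB2 knockouts, with a median log2 difference of -0.27. The summed level of 11 erythroid markers, tested or not, was 1134 to 1429 CPM in ZEB2 knockouts and 1392 to 1782 CPM in ZEB2 controls. In a library, 0 to 2 of these markers were at 0. Their part in the Tfrc result was not tested.

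Slc11a2 encodes DMT1, the endosomal iron transporter, on chr15:100387898-100425072. It was among the steadiest of the 8 genes, at 19.5, 20.1 and 23.5 CPM in ZEB2 knockouts and 19.9, 22.9 and 23.1 CPM in their controls. These ranges overlap almost fully (-0.06 on the log2 scale, SE 0.14, edgeR adjusted p = 0.761). In the ZEB1 line it was at 21.1, 20.1 and 25.6 CPM in knockouts and 17.8 and 19.7 CPM in controls. All 3 knockouts lie above both controls, by as little as 20.1 against 19.7 CPM, and the log2 difference of 0.25 (SE 0.15) did not pass the test (edgeR adjusted p = 1.00).

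Slc40a1, the exporter ferroportin on chr1:45908068-45926523, showed no separation in either line. Its levels were 52.6, 55.5 and 77.3 CPM in ZEB2 knockouts and 72.5, 58.9 and 36.8 CPM in controls (0.14 on the log2 scale, SE 0.23, edgeR adjusted p = 0.683). Among the ZEB1 knockouts it was at 43.5, 39.0 and 44.1 CPM and in their controls at 38.5 and 45.6 CPM (0.01, SE 0.26, edgeR adjusted p = 1.00). The sign of the ZEB2 difference changes without ZEB2 control 3 (-0.09) or ZEB2 knockout 3 (-0.03). Ferroportin is abundant in macrophages that recycle iron, and 14 of 15 tested macrophage markers were lower and 1 higher in ZEB2 knockouts (median -0.50). The summed level of 16 macrophage markers, tested or not, was 113 to 123 CPM in ZEB2 knockouts and 138 to 180 CPM in ZEB2 controls. It was 137 to 205 CPM in ZEB1 knockouts and 198 to 219 CPM in ZEB1 controls. Per library, 0 to 2 of these markers were at 0. Their part in the Slc40a1 and Hmox1 values was not tested.

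Ireb2, which encodes IRP2, lies on chr9:54863789-54912530. It was at 41.4, 44.6 and 54.2 CPM in ZEB2 knockouts and 38.0, 45.9 and 40.3 CPM in controls (0.17 on the log2 scale, SE 0.14, edgeR adjusted p = 0.403). ZEB1 knockouts were at 39.8, 40.3 and 42.4 CPM and their controls at 38.0 and 48.3 CPM (-0.08, SE 0.16, edgeR adjusted p = 1.00). The groups overlap in both lines, and IRP2 is controlled mainly by breakdown of the protein, which these counts do not read.

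Ncoa4, the ferritin receptor for autophagy on chr14:32159865-32179855, was the least variable of the 8 over all libraries. ZEB2 knockouts were at 50.9, 50.6 and 54.1 CPM and controls at 53.0, 59.0 and 56.7 CPM (-0.12 on the log2 scale, SE 0.12, edgeR adjusted p = 0.523). In the ZEB1 line it was at 53.3, 44.3 and 56.9 CPM in knockouts and 52.1 and 48.0 CPM in controls (0.04, SE 0.14, edgeR adjusted p = 1.00). Its groups overlap in both lines.

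**Figure D4:**
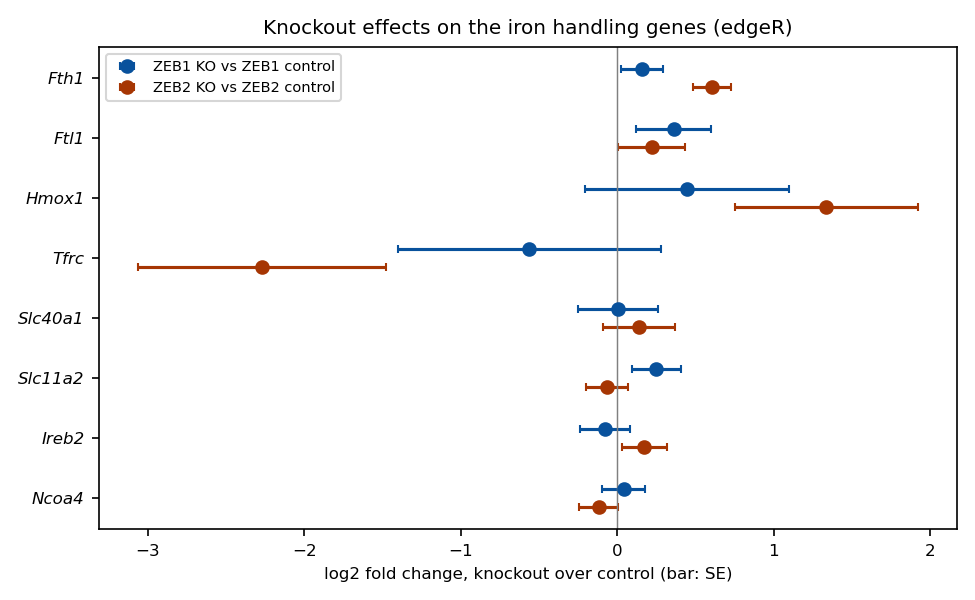
Log2 fold change of each of the 8 genes, knockout over control, in the ZEB1 and the ZEB2 line, from edgeR, with the SE as a bar. Fth1 (0.61) and Hmox1 (1.34) lie to the right and Tfrc (-2.27) to the left of 0 in the ZEB2 line, and none passed an adjusted p of 0.05.

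In ZEB1 knockouts against ZEB1 controls edgeR called 0 of 15416 genes (0%) and 499 (3.24%) had an unadjusted p under 0.05, DESeq2 called 21 (0.136%), and 0 of the 8 members were called by either or had an unadjusted p under 0.05. The members' log2 differences were above 0 in 6 and below in 2, with a median of 0.10, against 7899 and 7515 of all genes and a median of 0.01. In 1 member, Slc11a2, the groups did not overlap, and 7.19% of all genes lay higher in that way.

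The difference between the knockout effects, ZEB1 minus ZEB2, was tested directly. edgeR called 0 genes (0%), 1427 genes (9.26%) had an unadjusted p under 0.05, and DESeq2 called 17 (0.113%). Of the members, Fth1 alone had an unadjusted p under 0.05 (0.0288). Its effect was 0.45 lower on the log2 scale in the ZEB1 line (-0.45, SE 0.18), with an edgeR adjusted p of 0.516. For Hmox1 the difference of effects was -0.89 (SE 0.86, edgeR adjusted p = 0.673) and for Tfrc 1.71 (SE 1.16, edgeR adjusted p = 0.570). The other 5 members had edgeR adjusted p from 0.557 (Slc11a2, 0.32, SE 0.21) to 0.878 (Slc40a1, -0.13, SE 0.34). None of the 8 genes was thus shown to respond differently to the loss of ZEB1 and of ZEB2.

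The floxed controls of the lines were compared to see how far the lines differ without Cre. Here edgeR called 3 genes (0.0195%) and 0 of the 8 members, and 512 genes (3.32%) but 0 members had an unadjusted p under 0.05, and DESeq2 called 16 genes (0.104%). Tfrc was 1.07 higher on the log2 scale in ZEB2 controls (SE 0.87, edgeR adjusted p = 1.00), with ZEB2 control 1 at 40.9 CPM below both ZEB1 controls. Of the erythroid markers 7 of 7 were higher in ZEB2 controls (median 0.39), 5 of them without overlap, and their part in the Tfrc value was not tested. Slc11a2 (0.23) and Ncoa4 (0.17) lay higher in all ZEB2 than in all ZEB1 controls, as 8.96% of all genes did. This comparison shares its libraries with the knockout comparisons.

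Beyond the 8 members, 5 lists of related genes were read from the same fit. In each list 0 genes were called by edgeR in either knockout comparison, so the values below are descriptions. For all genes in the ZEB2 comparison, the share with an unadjusted p under 0.05 was 15.9% higher and 17.3% lower, and DESeq2 called 10.5% higher and 8.91% lower. In the ZEB1 comparison these unadjusted shares were 1.64% and 1.6%.

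The iron sensing and ferritin turnover list holds the IRP1 gene, the NRF2 and BACH1 regulators and, mostly, autophagy and lysosome genes. Its genes were mostly higher in ZEB2 knockouts, but not the iron-sensing genes Aco1 and Fbxl5. Of 20 tested, 16 were higher and 4 lower (median log2 difference 0.52), 14 higher and 1 lower had an unadjusted p under 0.05, and DESeq2 called 9 higher and 1 lower. The 1 gene called lower was Aco1, which encodes IRP1, the cytosolic aconitase that binds the same hairpins when it lacks its iron-sulfur cluster. It was at 11.04 ± 0.483 CPM in ZEB2 knockouts and 15.7 ± 0.484 CPM in controls (SD, n = 3 each; log2 difference -0.51, SE 0.12, edgeR adjusted p = 0.0775). Fbxl5 was at 35.0, 30.5 and 27.9 CPM in ZEB2 knockouts and 32.5, 32.0 and 35.1 CPM in controls, which overlap. Sqstm1, the autophagy receptor p62, was at 2001 ± 374 and 857.9 ± 267 CPM (1.22, SE 0.35). Gabarapl2, of the family of ubiquitin-like proteins that coat autophagosomes, was at 109.3 ± 7.10 and 79.4 ± 6.77 CPM (0.46, SE 0.12). In ZEB1 knockouts 15 of the 20 were higher and 5 lower, with a median of 0.07 and 0 below an unadjusted p of 0.05. There Aco1 was 0.14 higher, and Gabarap and Keap1, the NRF2 inhibitor, each 0.20 higher on the log2 scale.

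Genes of iron transport and systemic control went both ways in ZEB2 knockouts. Of 23 tested, 9 were higher and 14 lower (median -0.19), 4 higher and 6 lower had an unadjusted p under 0.05, and DESeq2 called 2 higher and 1 lower. Slc25a28, mitoferrin 2, which brings iron into mitochondria, was at 140.9 ± 31.2 CPM in ZEB2 knockouts and 51.1 ± 13.4 CPM in controls (1.46 on the log2 scale, SE 0.38, edgeR adjusted p = 0.0787). Slc48a1, the heme transporter HRG1, was at 102.4 ± 12.6 and 66.3 ± 5.77 CPM (0.63, SE 0.19). Steap3, the endosomal ferrireductase that works with the transferrin receptor, was at 8.27 ± 2.57 and 17.3 ± 4.56 CPM (-1.06, SE 0.35). In ZEB1 knockouts 9 were higher and 14 lower (median -0.06) and 0 had an unadjusted p under 0.05, with Cp (ceruloplasmin, -0.35), Steap2 (-0.59) and Hfe (-0.25) at the smallest p.

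Heme synthesis and breakdown genes were mostly a little lower in ZEB2 knockouts. Of 18 tested, 4 were higher and 14 lower (median -0.15), and 0 higher and 2 lower had an unadjusted p under 0.05. Those 2 were Cpox, coproporphyrinogen oxidase (-0.54, SE 0.18), and Abcb10, a mitochondrial transporter (-0.43, SE 0.17), and DESeq2 called 0. In ZEB1 knockouts 12 were higher and 6 lower (median 0.04), and Abcb10 was 0.24 higher on the log2 scale.

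Iron-sulfur cluster assembly genes were more often higher in both lines. In ZEB2 knockouts 19 of 26 were higher and 7 lower (median 0.10), with 7 higher and 1 lower at an unadjusted p under 0.05. In ZEB1 knockouts 21 were higher and 5 lower (median 0.17), with 3 higher and 1 lower at an unadjusted p under 0.05. Ciapin1, which passes electrons to cytosolic cluster assembly, was 0.68 higher there (SE 0.24), and Ndor1, its partner reductase, 0.76 lower (-0.76, SE 0.27). In ZEB2 knockouts Ndor1 was 0.69 higher (SE 0.25).

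NRF2 targets, the antioxidant genes to which Hmox1 also belongs, were higher in 16 and lower in 4 of 20 in ZEB2 knockouts (median 0.34). Only 2 higher and 3 lower had an unadjusted p under 0.05, and DESeq2 called 2 higher and 2 lower. Prdx1, a peroxiredoxin, was at 405.9 ± 50.9 and 244.4 ± 54.7 CPM (0.73, SE 0.22). The pentose phosphate genes Tkt (-1.06, SE 0.24) and G6pdx (-0.76, SE 0.20) were lower. In ZEB1 knockouts 12 were higher and 8 lower (median 0.04), and 0 had an unadjusted p under 0.05.

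**Figure D5:**
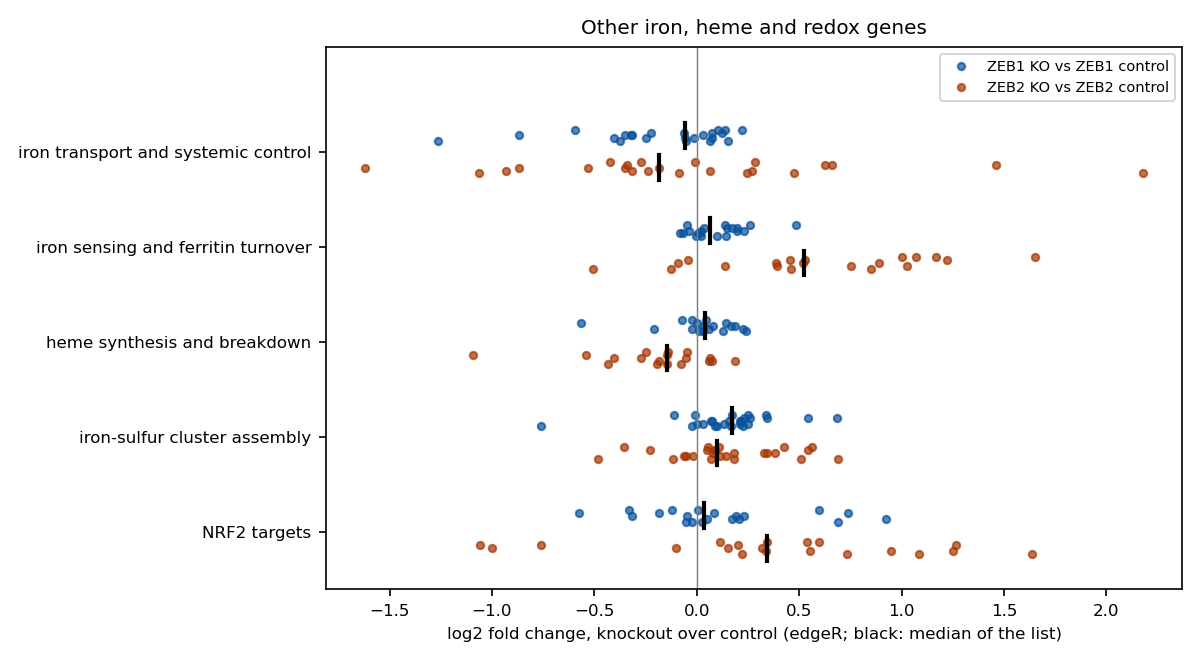
Log2 fold change from edgeR, knockout over control, for each tested gene of the 5 lists, with a black bar at each list's median, in the ZEB1 and the ZEB2 line. In the ZEB2 line the medians are 0.52 for iron sensing and ferritin turnover, 0.34 for NRF2 targets and -0.19 for iron transport, and in the ZEB1 line all 5 lie between -0.06 and 0.17.

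Markers of other cells were lower in the ZEB2 knockouts as a group, which is given here beside the lists above. Fibroblast markers were lower in 9 of 10 (median -0.83, summed level 1745 to 1916 CPM against 1982 to 2513 CPM in controls). Adipocyte markers were lower in 8 of 8 (median -0.77, 880 to 1150 CPM against 944 to 1515 CPM). Endothelial markers were lower in 9 of 10 (median -0.24, 428 to 479 CPM against 476 to 602 CPM). In ZEB1 knockouts 10 of 10 fibroblast markers were lower (median -0.58), and 12 of 15 macrophage, 6 of 7 erythroid, 9 of 10 endothelial and 5 of 8 adipocyte markers. Myofibre markers went both ways in ZEB2 knockouts, with 5 of 10 higher and 5 lower (median -0.19, range -1.54 to 0.40), while their sum was 105333 to 110629 CPM against 90218 to 96418 CPM in controls. The part of these shifts in the levels of the 8 genes was not tested.

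Genes that ran closest to each member over the 11 libraries were found by Pearson correlation of log2 CPM among 11666 protein-coding genes. The points share their groups and each library's scaling, so these are descriptions. Tfrc ran with Rarb, a retinoic acid receptor (r = 0.985, and 0.983 on deviations from the group means), Mmp23 (0.970) and Sypl2 (0.965). Hmox1 ran with Phc2 (0.978), Sun2 (0.976) and Phf13 (0.970). Fth1 ran with Dmac2l (0.981), Rnf126 (0.979) and Dedd (0.979), and Ftl1 with Cd63, a tetraspanin of endosomes and vesicles (0.945), Hs6st1 (0.931) and Hcfc1r1 (0.901). The nearest genes were Arhgap35 (0.968), Adam9 (0.964) and Rab5a (0.957) for Ireb2, and Sacm1l (0.930), Pakap (0.860) and Bicd2 (0.859) for Ncoa4. They were Tulp3 (0.906), Unc93a2 (0.900) and Fbxo36 (0.897) for Slc40a1, and Sft2d3 (0.829), Prpf3 (0.827) and Wdr82 (0.826) for Slc11a2. Among the members themselves, Fth1 and Hmox1 gave r = 0.671 (0.615 on deviations from the group means) and Fth1 and Ftl1 0.414 (0.636). Tfrc gave -0.671 with Fth1 (-0.419) and -0.626 with Hmox1 (-0.360), over 11 libraries. Other pairs ran closer on deviations from the group means. These were Slc11a2 with Ireb2 (0.745) and Ncoa4 (0.677), and Slc40a1 with Tfrc (-0.706) and Fth1 (0.674).

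ZEB proteins bind E-boxes of the form CACCTG, so this motif was searched on both strands in RefSeq promoter windows (GRCm38.p6) of 250 bases before to 50 after each start. Windows were found for Fth1, Ftl1, Tfrc, Ireb2 and Ncoa4. The motif was in 3 of their 9 windows, in Fth1, Tfrc and Ncoa4, and in 6640 of 32851 windows of all genes (20.2%). Ncoa4 had matches at 44 and -95 bases from a start, and its log2 difference in the ZEB2 comparison was -0.12 (edgeR adjusted p = 0.523). Tfrc and Fth1 had an unadjusted p under 0.05 in the ZEB2 comparison. Each had 2 windows, with the match in 1 of them and none in the other. The Fth1 match lies in the window chr19:9980350-9980649, well upstream of its 5′ UTR hairpin at chr19:9982732-9982761. These matches are shown with the motif in capitals, and each distance is from the transcript start of the window that holds the match.
Tfrc, chr16:32608794-32608799, -102 bases from the start: gctctcccgaCACCTGccgccttggc
Fth1, chr19:9980362-9980367, -238 bases from the upstream of its 2 starts: atttttaattCACCTGggaggtattt
The core of the antioxidant response element, TGACNNNGC, was in 1 of the 9 windows, that of Ncoa4, and in 12.4% of all windows. Hmox1 had no window to search. Each match is a description and no evidence of binding, and a missing match says nothing of sequence outside the windows.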

How the data were processed

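Stranded poly(A) RNA libraries (0.5 µg RNA each) of 11 pools were deposited as 1 table of gene counts. STAR and RSEM are named with the build GRCm38 per the submitters' processing notes, with no version or setting, and the deposited values are whole numbers, treated here as estimated counts. Genes were filtered with filterByExpr (minimum count 10, minimum total 15), which kept 15416 genes holding 99.96% of counts, and fitted with edgeR 4.0.16 (R 4.3.3; TMM, robust quasi-likelihood, 4 group means over all 11 libraries, Benjamini-Hochberg adjustment over all genes tested, threshold 0.05). DESeq2 1.42.0, limma-voom 3.58.1, other scalings and filters, a replicate block, a Y-linked covariate, pooled ferritin copies and leaving out each library were alternatives. The fits were tested on simulated counts with the same spread for every gene. Of 100 genes changed 1.5-fold, edgeR found 6% (ZEB1 comparison) and 7% (ZEB2), and DESeq2 13% and 12%. Of 100 genes changed 4-fold, both tools found at least 98%. False calls were 10 and 7 with edgeR, and 26 and 25 with DESeq2. SE was taken from the log2 fold change and its F statistic. Libraries within a group differed beyond sampling noise (chi-square per degree of freedom at least 15.01). The log2 values used for likeness had 0.5 CPM added, for genes with a mean of at least 1 CPM. The ferritin share used an exact permutation test over libraries.

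The 8 genes, the lists and the markers were chosen with earlier results of these data known. Named beside the members were the 3 genes of each list with the smallest p per knockout comparison (some given by group only, and some not reported here) and the 3 genes most like each member. Gene positions and transcript lengths came from GENCODE M21, with the transcript numbered 201 of each gene as its length, and 55144 of 55385 gene identifiers matched.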

Additional observations from a re-analysis of the deposited data

How the results depend on the processing

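Each group had 2 or 3 pooled libraries, and the counts of called genes depended on the tool, the filter and the groups fitted. The lowest count of a member, 223 for Hmox1, had a counting error of 6.70%. The number of genes called in the ZEB1 comparison was 0 with edgeR, 21 with DESeq2, 1 with limma-voom and 6 with no filter on low counts. In the ZEB2 comparison it was 0 with edgeR, 2587 with DESeq2, 348 with no filter and 2077 when only the groups compared were fitted. Members called in the ZEB2 comparison were 3 with DESeq2 (Fth1, Hmox1, Tfrc), 1 with no filter (Fth1, adjusted p = 0.0404) and 2 with only the groups compared (Fth1 and Hmox1, both adjusted p = 0.0388). For the difference of effects 17 genes were called by DESeq2 and 2 with no filter. For the controls the count of 3 became 16 with DESeq2, 7 with no filter, and 5 with DESeq2 size factors or without robust fitting. Leaving out 1 library gave 0 to 5 called genes for ZEB1 (2 without ZEB1 control 2, 5 without ZEB1 knockout 2), 0 for ZEB2, 0 to 3 for the difference and 1 to 4 for the controls.

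Alternatives other than leaving out 1 library include the fit of only the groups compared. Over them the ZEB2 log2 difference ran from 0.48 to 0.64 for Fth1, 1.18 to 1.37 for Hmox1 and -2.45 to -2.01 for Tfrc. Total-count scaling moved the median of all genes by -0.13 in the ZEB2 comparison, and Fth1, at 0.48, was 0.66 relative to that median. Signs turned for small values only, apart from Hmox1, and the cause was not tested. With total counts Slc40a1 (-0.045) and Ncoa4 (-0.018) in the ZEB1 comparison and Ftl1 in the controls (-0.046) turned. With CPM above 1 in at least 2 libraries Slc40a1 in the ZEB1 comparison was -0.020. With the Y-linked covariate Ftl1 in the controls was -0.044 and Slc40a1 in the difference 0.068. Of the members' other values under these alternatives, 322 kept direction and side of the threshold and 6 passed it.

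Leaving out 1 library, 197 member values kept direction and 19 turned. In the ZEB1 comparison Hmox1 ran from -0.41 to 1.57, Slc40a1 from -0.13 to 0.12, Ireb2 from -0.26 to 0.10, Ncoa4 from -0.045 to 0.14 and the Ftl1 share from -0.17 to 2.97 percentage points. In the ZEB2 comparison Slc40a1 ran from -0.090 to 0.37, and the Ftl1 share, which kept its sign, from -3.61 to -2.17 percentage points. In the difference Ftl1 ran from -0.17 to 0.34, Hmox1 from -1.76 to 0.22 and Slc40a1 from -0.36 to 0.10. In the controls Fth1 ran from -0.022 to 0.21, Ftl1 from -0.089 to 0.10, Hmox1 from -1.16 to 0.63 and Ireb2 from -0.24 to 0.11.

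Same-numbered libraries did not deviate together throughout (r across genes 0.56 and 0.18 in the ZEB1 line, and 0.25, -0.06 and -0.42 in the ZEB2 line), so the numbers were not read as pairs. With the replicate number as a block, 0 genes were called in the ZEB1 and ZEB2 comparisons and in the difference. Fth1 was then 0.61 (edgeR adjusted p = 0.0780), Hmox1 1.32 (0.0780) and Tfrc -2.36 (0.0810) in the ZEB2 comparison. The Ftl1 share there differed by -2.90 percentage points between same-numbered libraries. Flipping the signs of these differences gave an exact p of 0.25, the smallest that so few pairs can give. ZEB1 knockout 1 has no same-numbered control, so the blocked fit takes no ZEB1 difference from it. In that fit of the ZEB1 comparison Hmox1 turned to -0.29 and Slc40a1 to -0.015. In the unblocked fit without ZEB1 knockout 1 they were -0.41 and -0.030. The comparison of the controls has no blocked fit.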
